A study of Mus musculus with 22 samples.

Results

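A set of 9 transcription factors known from the developing ureteric bud and collecting duct were followed in a mouse collecting duct cell line, namely Gata2, Gata3, Tfap2a, Tfap2b, Grhl2, Pax2, Pax8, Emx1 and Lhx1. They were taken by gene symbol and make up 9 of the 54514 entries that remained after lines sharing a symbol were summed, and each symbol stood on 1 line with its own Ensembl identifier. The cells were mpkCCDc11-38, a subclone of an immortalised mouse cortical collecting duct line, grown on permeable supports and then kept in a serum-free medium that contained dexamethasone in every group. WT cells, unsorted, were left without dDAVP (3 libraries) or given dDAVP (3 libraries), an agonist of the vasopressin V2 receptor. The reporter lines, of which C1, C11, C43 and C50 are each a single clone carrying GFP, all received dDAVP and were divided into GFP-negative and GFP-positive cells, with 2 libraries for each of the 8 groups. The series concerns cell-to-cell differences in the water channel aquaporin-2 (Aqp2), and which promoter drives GFP is not given in the sources used here. More than 1 dose and duration of dDAVP is named in the labels without being tied to libraries, so neither was analysed here. They do not say whether the replicates were separate cultures, and the p-values therefore measure only the spread between these libraries, which may be technical.

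Collecting ducts arise from the ureteric bud, an epithelial outgrowth of the nephric duct. Pax2 and Pax8 are paired-box factors that act early in the nephric lineage, Gata3 is a zinc-finger factor of the nephric duct and its branches, and Lhx1 (LIM homeodomain) and Emx1 (homeobox) belong to families with roles in the early urogenital ducts. Tfap2a and Tfap2b encode AP-2 factors of the distal nephron, and Grhl2 encodes a Grainyhead-like factor that maintains epithelial junction genes. Gata2 is a GATA factor known as an activator of Aqp2 in collecting duct cells.

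Promoter letters bear on 3 genes whose levels are set side by side, Gata3, whose level followed the GFP fraction, Aqp2, and Pax8, the most abundant member. The windows run from 250 bases before to 50 bases after the start and come from RefSeq on GRCm38.p6, where 8 of the 9 members had a window and Grhl2 had none. The motifs were searched on both strands as GATAA for GATA factors, GCCNNNGGC for AP-2, AACCNGTT for Grainyhead-like factors and TAATTA for LIM and EMX homeodomains, and matches are in capitals, each 5′ to 3′ on the gene's own strand. No 2 matches in these windows share bases.
Gata3 at chr2:9878551-9878850, minus strand: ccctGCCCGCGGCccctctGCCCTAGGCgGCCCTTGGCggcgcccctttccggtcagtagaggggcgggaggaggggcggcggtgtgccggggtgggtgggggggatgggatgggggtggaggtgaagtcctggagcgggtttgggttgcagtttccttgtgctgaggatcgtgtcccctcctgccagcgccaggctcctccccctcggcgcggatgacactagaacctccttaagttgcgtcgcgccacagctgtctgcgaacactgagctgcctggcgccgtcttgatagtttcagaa
Aqp2 at chr15:99578806-99579105, plus strand: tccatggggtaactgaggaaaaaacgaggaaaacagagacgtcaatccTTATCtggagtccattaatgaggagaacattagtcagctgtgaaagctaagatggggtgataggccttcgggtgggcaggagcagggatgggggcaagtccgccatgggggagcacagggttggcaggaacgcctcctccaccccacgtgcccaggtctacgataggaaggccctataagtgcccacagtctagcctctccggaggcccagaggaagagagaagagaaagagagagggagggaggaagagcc
Pax8 at chr2:24475550-24475849, minus strand: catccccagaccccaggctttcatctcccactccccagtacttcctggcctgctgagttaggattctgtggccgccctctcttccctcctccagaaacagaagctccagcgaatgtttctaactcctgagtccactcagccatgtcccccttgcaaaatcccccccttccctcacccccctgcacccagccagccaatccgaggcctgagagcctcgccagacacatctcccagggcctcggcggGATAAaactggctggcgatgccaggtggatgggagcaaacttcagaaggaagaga
The Gata3 window held 3 AP-2 matches, at bases 5 to 13, 20 to 28 and 30 to 38 counted from its 5′ end, and no GATAA. Of all 32851 windows, 16.6% held at least 1 AP-2 match. The Gata3 window was 67.3% G and C, against a median of 52.7% over all windows. The Aqp2 window held 1 GATAA match, at bases 49 to 53 and read on the opposite strand, and the Pax8 window held 1, at bases 246 to 250, against 25.4% of all windows with at least 1. Among the other members, Gata2 held 1 AP-2 match in its second window (GCCCACGGC), Emx1 held 1 (GCCCGCGGC), and Pax2 held 2 (GCCAGCGGC and GCCTTGGGC) beside 1 Grainyhead-like match (AACCAGTT, found in 2.09% of all windows). Tfap2a held the homeodomain letters TAATTA, found in 5.29% of all windows, and Lhx1 and Tfap2b held none of the 4 motifs. A match is a run of letters and shows no binding. Only these exact letters were searched, and other forms of each site are not marked.

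Markers of principal cells, the collecting duct cells that carry Aqp2, were present at uneven levels. Of 9, 8 had a mean of at least 1 TPM (a transcript abundance per length, scaled to a fixed total in each library), among them the V2 receptor gene Avpr2 at 245 TPM and the sodium channel subunit Scnn1a at 171 TPM. The water channels Aqp3 (1.70 TPM) and Aqp4 (1.79 TPM) were only just above that level, and the channel subunit Scnn1b (0.362 TPM) was below it. The intercalated cell markers Foxi1, Slc4a1 and Slc26a4 stayed at means of 0.015 to 0.0523 TPM, and of that list only the proton pump subunit Atp6v1b1 was high (59.1 TPM). Of the 24 markers of other cell types, 3 had a mean of at least 1 TPM, the proximal tubule gene Lrp2 (7.81), the podocyte gene Podxl (13.8) and the immune gene Cd68 (6.23). GFP stood at 5.31 to 17.6 TPM in the GFP-negative libraries and at 1065 to 1567 TPM in the GFP-positive ones, and Aqp2 was higher in the positive fraction of every clone. TPM keep no depth, so the depth of each library is unknown. By genes detected (TPM above 0) the libraries fell into 10 with 17177 to 20250 and 12 with 23135 to 31292. GFP-negative replicate 1 of C50 stood apart, with 8.32% of its TPM in ribosomal protein genes against 3.85% to 6.12% in the other 21 libraries, and it held the lowest value of Gata3, Tfap2a, Grhl2, Pax2 and Pax8. The part of its ribosomal share in those values was not tested, and the calls, C50 clone means and likeness values that include it are also given without it where they moved.

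The 9 factors spanned a wide range of abundance on this per-length scale. Pax8 had the highest mean over the 22 libraries (393 TPM), above 99.3% of all entries, and ranged from 250 to 498 TPM. Gata3 followed at 211 TPM (97.2 to 335) and Grhl2 at 54.2 TPM (23.1 to 73.4). These 3 factors kept this order in every library. Tfap2a (12.8 TPM, range 7.22 to 18.3) and Pax2 (10.2 TPM, range 4.71 to 19.4) were of middle level, had overlapping ranges and were above 0 in all 22 libraries. Gata2 was low, with a mean of 2.45 TPM, a median of 1.10 and a range of 0.48 to 7.74. Tfap2b (mean 0.298 TPM), Lhx1 (0.0564 TPM) and Emx1 (0.0286 TPM) had means above those of 68.1%, 48.6% and 39.4% of all entries, and were listed at 0 in 8, 10 and 14 of the 22 libraries.

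In the GATA, PAX and AP-2 pairs among the members, one gene made up most of the summed TPM. Of the summed Gata2 and Gata3 TPM, Gata2 made up 1.37% on average over the 22 libraries (0.155% to 4.8%). Pax2 made up 2.5% of the sum with Pax8 (1.74% to 3.76%), and Tfap2b 2.17% of the sum with Tfap2a (0 to 8.37%). The Pax2 share varied little, whereas the Gata2 share differed by clone, as the values for clones show. Beyond the members, 24 further genes of the same families were examined, and 20 of them had a mean under 1 TPM, at most 0.554. The 4 above that level were Emx2, the close relative of Emx1, at group means of 21.4 TPM and more, Grhl1, at 25.9 TPM in GFP-positive C50 cells, Pax9 and Gata4.

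Between groups the members varied to different degrees. The highest group mean exceeded the lowest 11.3-fold for Gata2, whose lowest was 0.58 TPM, and 2.99-fold for Gata3. It did so 2.20-fold for Pax2, 2.00-fold for Tfap2a, 1.65-fold for Grhl2 and 1.52-fold for Pax8. The lowest group of these last members was GFP-negative C50, which holds the library that stood apart, and the folds were not computed without it. On the log2(TPM + 1) scale the SD of the 10 group means was 0.85 for Gata2 and 0.54 for Gata3, against pooled SDs within groups of 0.36 and 0.20. The spread between group means was also larger than that within groups, by less, for Tfap2a (0.28 between, 0.26 within) and Pax8 (0.18 between, 0.14 within). For Grhl2 (0.23 between, 0.29 within) and Pax2 (0.26 between, 0.33 within) it was smaller. These SDs include GFP-negative replicate 1 of C50, at 23.1 TPM of Grhl2 beside 51.8 TPM in replicate 2. They were not computed without it.

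**Figure D1:**
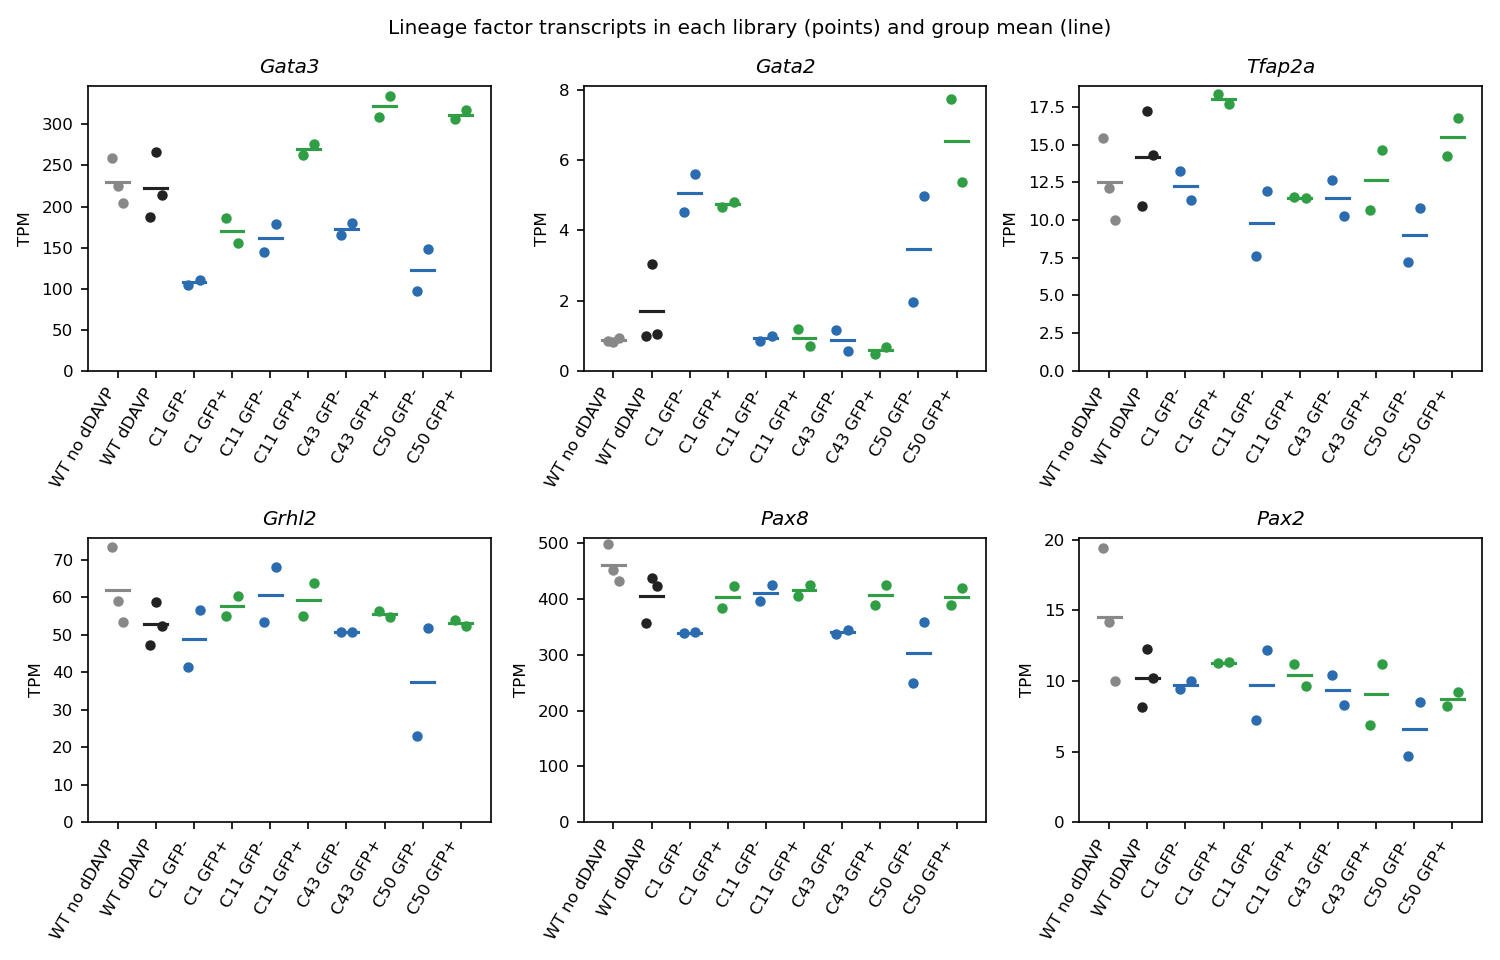
TPM (vertical axis) of the 6 members with a mean of at least 1 TPM in each of the 22 libraries (points) and as group means (lines), with the 10 groups on the horizontal axis. In every clone the GFP-positive libraries of Gata3 lie above the GFP-negative ones, and Gata2 is high in C1 and C50 alone among the clones.

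The first comparison asked whether the factors respond to dDAVP in WT cells. In these cells Aqp2 was 69.1 ± 5.43 TPM (SD, n = 3) without dDAVP and 2868 ± 139 TPM (SD, n = 3) with it. None of the 6 members that passed the filter of a mean of at least 1 TPM was called (0 of 6; limma, Benjamini-Hochberg adjusted p under 0.05), where 8.88% of the 13494 genes tested were called, and 0 of the 6 had an unadjusted p under 0.05. Tfap2b, Emx1 and Lhx1 did not pass the filter and were not tested.

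Gata3 was 259, 225 and 205 TPM in the libraries without dDAVP and 188, 267 and 214 TPM in those with it. The groups overlapped, and the difference was -0.05 on the log2 scale with a 95% interval of -0.39 to 0.28. Gata2 was 0.84, 0.83 and 0.94 TPM without dDAVP and 0.98, 3.05 and 1.04 TPM with it. All 3 treated libraries were above the untreated ones, but 1 library set most of the difference of 0.44 (95% interval -0.36 to 1.25, limma adjusted p = 0.407). Gata2 passed the filter on the mean only through that library, at 3.05 TPM. Pax8 was 498, 452 and 432 TPM without and 357, 437 and 424 TPM with dDAVP, a difference of -0.18 (-0.41 to 0.04). Pax2 was 19.4, 14.2 and 10.0 TPM without and 8.17, 12.3 and 10.2 TPM with dDAVP, a difference of -0.44 (-1.0 to 0.12). For both Pax genes the groups overlapped. Tfap2a differed by 0.16 (-0.31 to 0.63) and Grhl2 by -0.22 (-0.54 to 0.10). These sizes moved with single libraries. Leaving out each in turn gave -0.67 to -0.22 for Pax2, -0.24 to -0.10 for Pax8, 0.02 to 0.33 for Tfap2a and -0.32 to -0.09 for Grhl2, none of them called.

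The median difference of all genes tested was -0.16, and that of the 6 members -0.12. Median-ratio scaling, which brings the median of all genes to about 0, moved this by over 0.1, and Gata3 then differed by 0.12 in the other direction (adjusted p = 0.511). With that scaling Pax8 differed by -0.01, Grhl2 by -0.05, Pax2 by -0.28 and Tfap2a by 0.32, none of them called. With the number of genes detected as a covariate, Pax2 (-0.55, limma adjusted p = 0.0446) and Pax8 (-0.23, limma adjusted p = 0.0378) were called lower. Over all 16 alternatives the number of members called ranged from 0 to 2.

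The second comparison asked how the factors differ between GFP-negative and GFP-positive cells of the same clone, all under dDAVP. Gata3 was the member with the largest difference. It was higher in GFP-positive cells of all 4 clones with no overlap between the fractions, 1.90-fold over the clones. Tfap2a (1.36-fold) and Pax8 (1.17-fold) also rose. These 3 of 6 members tested were called, all higher, where 35.3% of the 13113 genes tested were called in either direction and 12.1% as higher. With median-ratio scaling 51.0% of the calls were higher in place of 34.2%, since the median of all genes lay at -0.06, and the median of the 6 members was 0.24. In bulk samples, a lower share of cells with a transcript and less of it per cell cannot be told apart. The share of all genes whose fractions do not overlap within a clone was not computed. With 2 libraries a side, a lack of overlap alone is weak evidence.

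Gata3 was 105 and 111 TPM in GFP-negative and 186 and 155 TPM in GFP-positive C1 cells. In C11 the values were 145 and 179 against 263 and 276 TPM, and in C43 they were 165 and 180 against 309 and 335 TPM. In C50 they were 97.2 and 148 against 306 and 317 TPM. The lowest GFP-positive library, in C1, was thus below the highest GFP-negative library of C11, and the separation held within clones. The log2 difference over clones was 0.91 (SE 0.108, 95% interval 0.68 to 1.15, limma adjusted p = 1.68e-05). It stayed called with each library left out in turn (0.82 to 0.96), and was 0.82 without GFP-negative replicate 1 of C50. The summed level of the 5 proximal tubule markers, nearly all of it Lrp2, was also higher in the GFP-positive libraries of C1 (3.91 to 3.99 TPM against 0.94 to 1.94), C43 (6.14 to 6.28 against 4.27 to 6.08) and C50 (8.23 to 12.8 against 5.26 to 7.46), and overlapped in C11 (13.0 to 16.2 against 9.95 to 13.2). The other 4 markers of that list had means under 0.1 TPM. The sum of the 6 intercalated cell markers, nearly all of it Atp6v1b1, was higher in GFP-positive cells of C1 (95.6 to 110 TPM against 56.7 to 69.5) and C50 (61.5 to 86.8 against 19.4 to 27.9) and overlapped in C11 and C43. The sum of the 3 podocyte markers, nearly all of it Podxl, was lower in GFP-positive cells of C1 (11.2 to 11.9 TPM against 18.0 to 27.4) and C50 (5.42 to 5.80 against 6.60 to 11.5) and overlapped in C11 and C43. The sum of the 3 immune markers, mostly Cd68, was lower in GFP-positive cells of C1 (5.16 to 5.92 TPM against 8.24 to 12.9), slightly higher in those of C11 (6.35 to 6.44 against 6.11 to 6.28), and overlapped in C43 and C50. For the other 4 lists of other cell types the fractions overlapped in each clone. The part of these markers in the Gata3 difference was not tested.

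The comparison was also made within each set of libraries with similar numbers of genes detected. Within the libraries with more genes detected the Gata3 difference was 0.88 (limma adjusted p = 0.00399), and within those with fewer it was 1.07 (limma adjusted p = 0.0503). Tfap2a differed by 0.21 and 0.63 (limma adjusted p = 0.477 and 0.159) and Pax8 by 0.12 and 0.35 (limma adjusted p = 0.283 and 0.196) in these sets. Neither was called in either set, and both sets gave differences above 0.

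Tfap2a was 13.2 and 11.3 TPM in GFP-negative and 18.3 and 17.7 TPM in GFP-positive C1 cells, and 7.22 and 10.8 against 14.3 and 16.8 TPM in C50. In these 2 clones the fractions did not overlap. In C11 (7.64 and 11.9 against 11.5 and 11.4 TPM) and C43 (12.6 and 10.3 against 10.7 and 14.7 TPM) they did. The difference over clones was 0.41 (SE 0.125, 95% interval 0.14 to 0.68, limma adjusted p = 0.0196), and it was no longer called without clone C1 (0.37, limma adjusted p = 0.113) or without clone C50 (0.30, limma adjusted p = 0.0758).

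Pax8 was 339 and 341 TPM in GFP-negative and 383 and 423 TPM in GFP-positive C1 cells, 338 and 344 against 389 and 425 TPM in C43, and 250 and 358 against 388 and 420 TPM in C50. The fractions were apart in these 3 clones. In C11 they overlapped, at 396 and 424 against 406 and 426 TPM. The difference over clones was small, 0.24 (SE 0.0751, 95% interval 0.08 to 0.40, limma adjusted p = 0.0228). Leaving out GFP-positive replicate 2 of C50 (0.21, limma adjusted p = 0.052), clone C1 (0.24, limma adjusted p = 0.0966) or clone C43 (0.23, limma adjusted p = 0.106) ended the call, as did testing every gene with any TPM above 0 for both Tfap2a (limma adjusted p = 0.0572) and Pax8 (limma adjusted p = 0.0706).

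The other tested members did not pass. Grhl2 differed by 0.24 (95% interval -0.07 to 0.54, limma adjusted p = 0.218) and had 1 low value, 23.1 TPM in GFP-negative replicate 1 of C50, beside 51.8 TPM in its partner library. With median-ratio scaling (0.32, limma adjusted p = 0.0208) or quantile normalization (0.31, limma adjusted p = 0.0161) Grhl2 was called higher. Pax2 differed by 0.16 (-0.13 to 0.46). Gata2 differed by 0.13 (-0.26 to 0.53, limma adjusted p = 0.621), and its fractions overlapped in 3 of 4 clones. Without GFP-negative replicate 1 of C50 the differences were -0.02 for Gata2, 0.10 for Grhl2 and 0.07 for Pax2, none called, and 0.33 for Tfap2a (limma adjusted p = 0.0204) and 0.17 for Pax8 (limma adjusted p = 0.00714), both called.

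**Figure D2:**
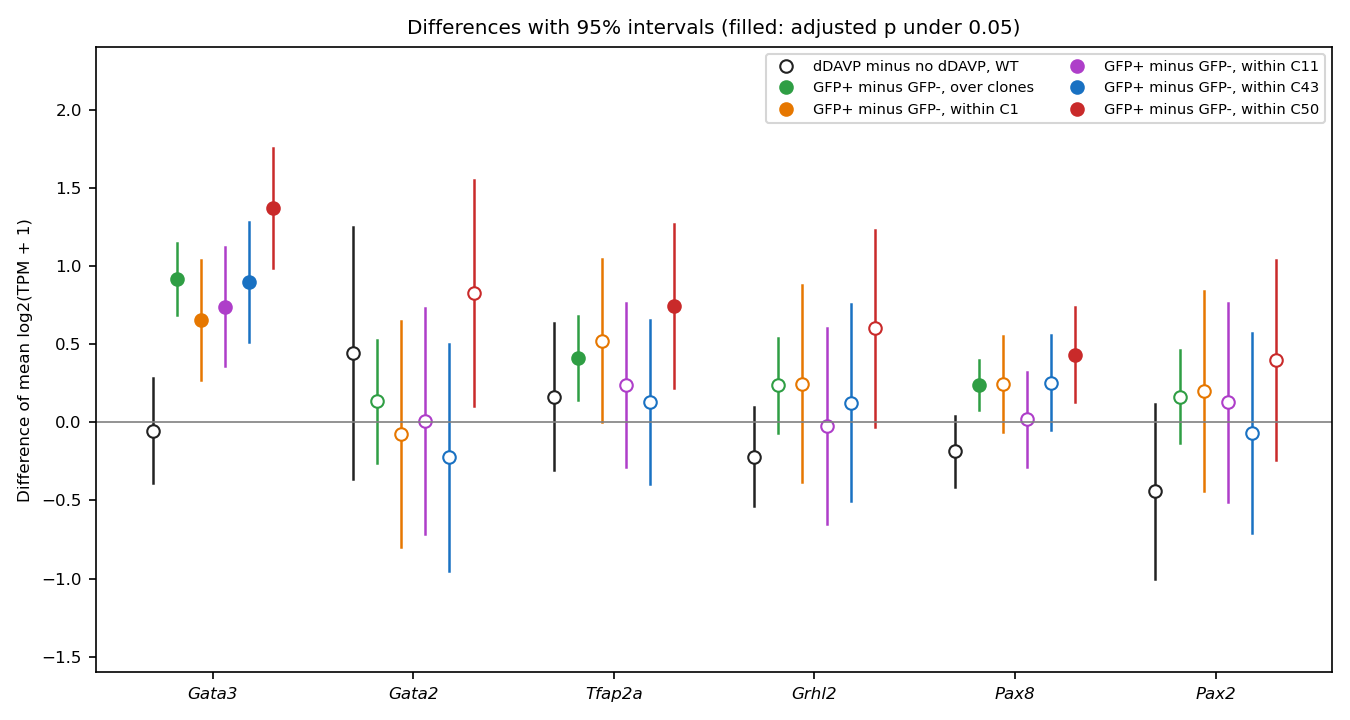
Differences in mean log2(TPM + 1) (vertical axis) with 95% intervals for the 6 tested members, for dDAVP in WT cells and for the GFP fractions over all clones and within each clone; filled points have a limma adjusted p under 0.05. Gata3 is above 0 and filled in all 5 fraction comparisons, from 0.65 in C1 to 1.37 in C50, and no member is filled for dDAVP.

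Within single clones Gata3 rose in the GFP-positive cells of each, by 0.65 in C1 (1.58-fold, limma adjusted p = 0.0462), 0.74 in C11 (1.67-fold, 0.0249), 0.89 in C43 (1.86-fold, 0.00533) and 1.37 in C50 (2.54-fold, 0.00025). It was the single member called in C1, C11 and C43, where 7.22%, 7.94% and 16.3% of genes tested were called (2.31%, 2.23% and 4.29% as higher). With median-ratio scaling 46.1%, 48.8% and 50.1% of the calls in these clones were higher, in place of 32%, 28.1% and 26.3%. In C50, with 26.6% of genes called (12.8% as higher), Tfap2a (0.74, limma adjusted p = 0.0392) and Pax8 (0.43, limma adjusted p = 0.0392) were called as well. With genes detected as a covariate the C1 call on Gata3 was lost (0.63, limma adjusted p = 0.0566), and with quantile normalization the C50 call on Tfap2a (0.56, limma adjusted p = 0.0668). Each arm holds 2 libraries, and the spread was pooled over the 16 clone libraries.

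The calls within clones were close to the threshold in part. The C1 call on Gata3 was lost with 14 of the 16 single libraries left out (limma adjusted p up to 0.318). The C11 call was lost without any 1 of its own 4 libraries (limma adjusted p = 0.0584 to 0.192), and the C43 call without GFP-negative replicate 1 (0.83, limma adjusted p = 0.0548). In C50, Gata3 stayed called without GFP-negative replicate 1 (1.07, limma adjusted p = 0.000336), while Tfap2a (0.48, limma adjusted p = 0.205) and Pax8 (0.17, limma adjusted p = 0.196) did not. These 2 calls were lost with 11 and 13 of the 16 libraries left out in turn. The size of the fraction difference was not shown to differ between clones. In the interaction of fraction and clone, 0 of 6 members were called by limma and 0 had an unadjusted p under 0.05. Of all genes tested, 0.869% were called there (Gata3 limma adjusted p = 0.402). In simulated data this test recovered only 20.5% of changes of 1 on the log2 scale, so the lack of calls does not show equal differences. Leaving out GFP-negative replicate 2 of C50 led to calls of Gata2 (limma adjusted p = 0.0373), Gata3 (0.00546), Grhl2 (0.0127) and Pax8 (0.00783), with 5038 genes called in place of 114.

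Gata3 and Aqp2 can be read side by side in the plot of both genes. In the clones the GFP-positive libraries were higher in both. Between WT groups, Aqp2 differed by 5.36 on the log2 scale (limma adjusted p = 1.7e-07) while Gata3 was 230 ± 27.6 TPM (SD, n = 3) without dDAVP and 223 ± 40.2 TPM (SD, n = 3) with it. The 2 clones with the largest Aqp2 difference between fractions, C1 (4.84 on the log2 scale) and C11 (3.59), had the smaller Gata3 differences, and C43 (2.10) and C50 (1.90) the larger. With 4 clones this order is a description only.

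**Figure D3:**
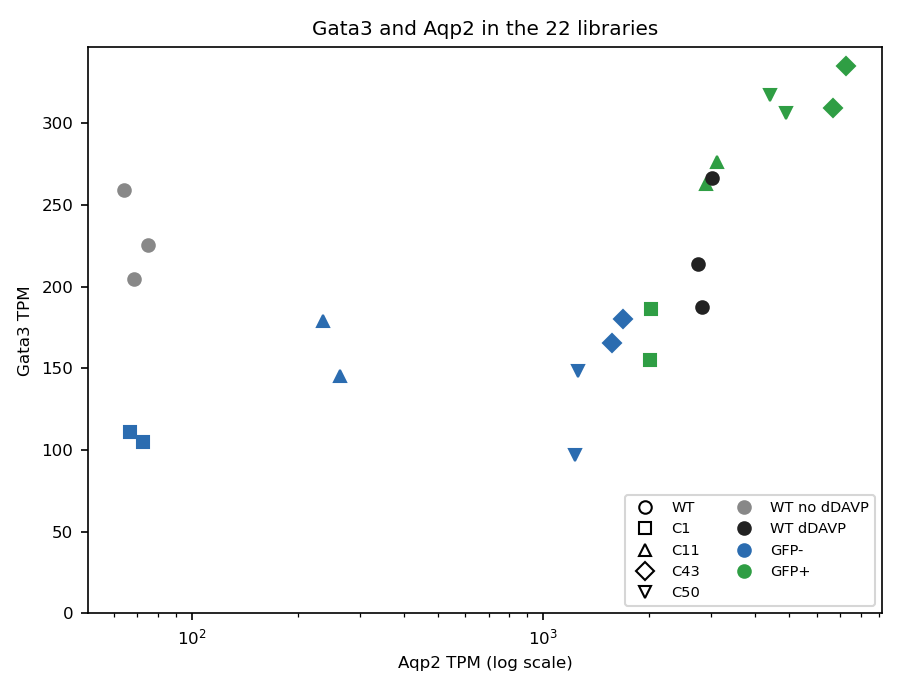
Gata3 TPM (vertical axis, linear) against Aqp2 TPM (horizontal axis, log scale) in the 22 libraries; shapes mark WT and the clones, colours the treatment of WT cells and the GFP fraction. GFP-positive libraries lie above the GFP-negative libraries of their own clone, while WT libraries without dDAVP reach 259 TPM of Gata3 at 64.1 to 74.9 TPM of Aqp2.

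The third comparison was between the clones. Gata2 and Gata3 were the members that differed (2 of 6 tested; moderated F-test of limma over 4 clones with the fraction in the model, adjusted p = 0.000103 and 0.00599), where 28% of genes tested were called. Gata2 passed the filter on the mean through C1 and C50, its mean being 0.933 TPM in C11 and 0.723 TPM in C43. With every gene above 0 TPM tested, its limma adjusted p was 0.000325 and that of Gata3 0.0193. Gata2 was 4.53 to 5.59 TPM in the 4 libraries of C1 and 1.96 to 7.74 TPM in those of C50. It was 0.70 to 1.19 TPM in C11 and 0.48 to 1.16 TPM in C43. The 2 pairs of clones did not overlap, and the WT libraries stood at 0.83 to 1.04 TPM except 1 with dDAVP at 3.05 TPM.

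On the log2 scale Gata2 was higher in C1 than in C11 by 1.61 (SE 0.261, limma adjusted p = 0.000575, 18.9% of genes called) and than in C43 by 1.79 (limma adjusted p = 0.000232, 22.9% called). It was lower in C11 than in C50, at -1.54 (limma adjusted p = 0.00186, 6.89% called), and lower in C43 than in C50, at -1.72 (limma adjusted p = 0.000701, 6.77% called). C1 and C50 differed by 0.07 (95% interval -0.49 to 0.63) and C11 and C43 by 0.18 (-0.38 to 0.73), and neither pair was called (21.2% and 3.32% of genes called). Without GFP-negative replicate 1 of C50, Gata2 differed by -1.85 between C11 and C50, by -2.03 between C43 and C50 and by -0.24 between C1 and C50, the last not called. The 4 calls also held when p-values were adjusted over all genes and all 6 pairs together. These pairs were not fitted without the filter on the mean, which Gata2 passed through C1 and C50. With the GFP-positive libraries alone the same 4 pairs were called (limma adjusted p = 0.00231 to 0.00649), and with the GFP-negative libraries alone none was (0.0939 to 0.318), though the differences kept their sign.

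Gata3 showed another order. C1 was below C11 by -0.62 (limma adjusted p = 0.0108), below C43 by -0.80 (limma adjusted p = 0.0019) and below C50 by -0.51 (limma adjusted p = 0.0273), and the other 3 pairs were not called. Its ranges over both fractions overlapped, at 105 to 186 TPM in C1, 145 to 276 TPM in C11, 165 to 335 TPM in C43 and 97.2 to 317 TPM in C50. Without GFP-negative replicate 1 of C50 the difference of C1 from C50 was -0.71 (limma adjusted p = 0.000141). The call against C50 was lost without either GFP-positive library of C1, either GFP-positive library of C50 or GFP-negative replicate 2 of C50 (limma adjusted p up to 0.0941). With the GFP-negative libraries alone Gata3 was not called in any of the 3 pairs, at -0.57 against C11 (limma adjusted p = 0.257), -0.67 against C43 (limma adjusted p = 0.203) and -0.15 against C50 (limma adjusted p = 0.694). The summed proximal tubule markers were also lowest in C1, at 0.94 to 3.99 TPM against 4.27 to 16.2 TPM in the other clones, and their part in the clone difference was not tested. As a share of the summed Gata2 and Gata3 TPM, Gata2 was 4.47% and 2.72% in negative and positive cells of C1 and 2.61% and 2.06% in those of C50. In C11 (0.567% and 0.352%), C43 (0.506% and 0.179%) and WT cells (0.382% without and 0.711% with dDAVP) it was lower.

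A relative outside the set, Gata4, a zinc-finger factor of the same family, is given as a description, since it was picked for the size of its difference and passed the filter through C1 alone. It was 6.52 to 8.48 TPM in the 4 C1 libraries and 0 to 0.53 TPM in the 12 libraries of C11, C43 and C50, with WT at 2.31 to 3.28 TPM. C1 was thus high in both Gata2 and Gata4, C50 in Gata2 alone, and C11 and C43 in neither. With 1 line per clone, clone and reporter insertion cannot be told apart.

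**Figure D4:**
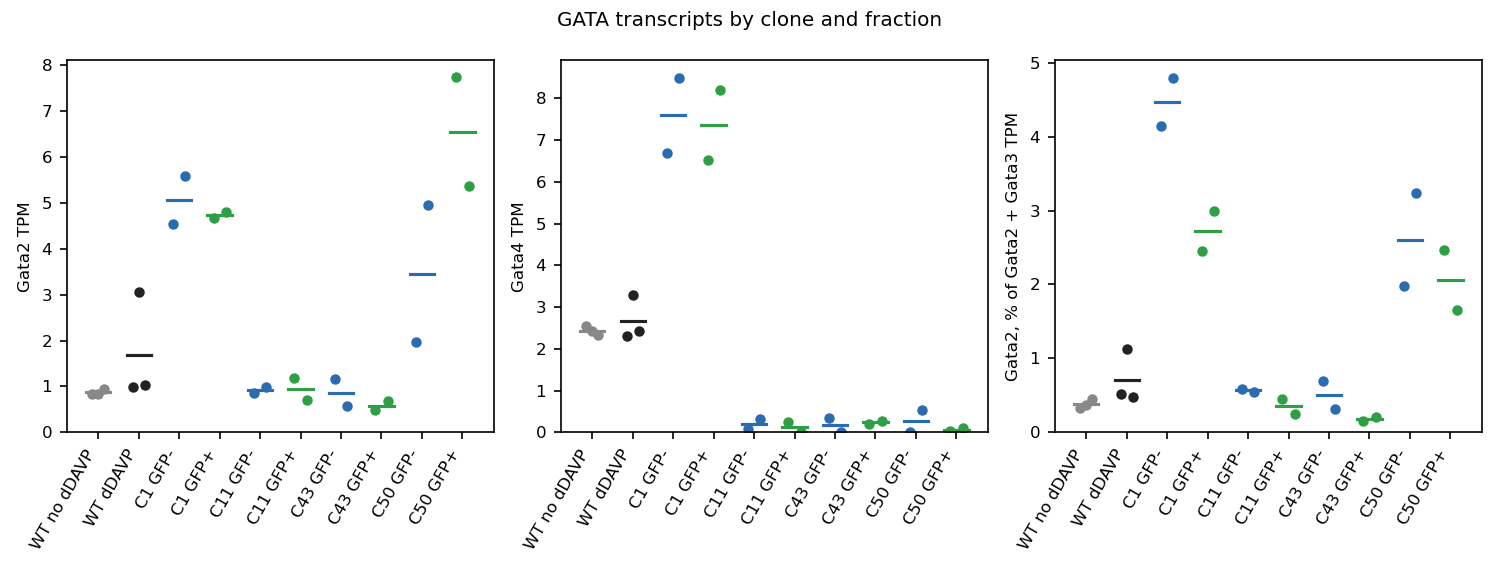
Gata2 TPM, Gata4 TPM and the percentage of Gata2 in the summed Gata2 and Gata3 TPM (vertical axes) for each library, by group (horizontal axis); lines are group means. Gata2 is high in C1 and C50, Gata4 lies at 6.52 TPM or more in C1 and at 0.53 TPM or less in the other clones.

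The other tested members did not differ between clones by the F-test, with limma adjusted p = 0.218 for Tfap2a, 0.293 for Pax2, 0.312 for Grhl2 and 0.312 for Pax8. Their clone means over 4 libraries lay close together, at 10.6 to 15.1 TPM for Tfap2a, 7.67 to 10.5 TPM for Pax2, 45.3 to 60.0 TPM for Grhl2 and 354 to 413 TPM for Pax8. C50 held the lowest mean of Pax2, Grhl2 and Pax8 and contains the library that stood apart. Without that library its means were 8.65 TPM for Pax2, 52.7 TPM for Grhl2 and 389 TPM for Pax8, and that of Pax8 was then no longer the lowest. The order of the 10 groups was accordingly loose. Of the 9 steps between neighbouring groups, the libraries overlapped in all 9 for Gata2, in 8 each for Tfap2a, Grhl2 and Pax2, in 7 for Pax8 and in 6 for Gata3.

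For Gata3 the order of group means ran from C43 and C50 GFP-positive (322 and 312 TPM) over C11 GFP-positive (270 TPM) and both WT groups to C43 GFP-negative, C1 GFP-positive and C11 GFP-negative (173, 171 and 162 TPM), with C50 and C1 GFP-negative last (123 and 108 TPM). The steps without overlap were those between C50 and C11 GFP-positive, between C11 GFP-positive and WT without dDAVP, and between WT with dDAVP and C43 GFP-negative. Both WT groups, unsorted, thus lay between the GFP-positive and the GFP-negative groups of 3 clones. The GFP-positive cells of C1 were the exception, at the level of the GFP-negative cells of C11 and C43.

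The 3 low members were read against how many genes each library detected. Tfap2b was above 0 in 12 of the 12 libraries with more genes detected (0.04 to 1.43 TPM, median 0.44) and in 2 of the 10 with fewer (at most 0.10 TPM). Lhx1 was above 0 in 11 of 12 and 1 of 10, and Emx1 in 7 of 12 and 1 of 10. Libraries of both treatments and both fractions were in each set, and no value exceeded 0.34 TPM for Lhx1 or 0.16 TPM for Emx1. For C1, with 3 of its 4 libraries in the set with fewer genes detected, Tfap2b was listed at 0 in those 3 and at 0.07 TPM in the other. With TPM at this level no difference between groups was tested.

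**Figure D5:**
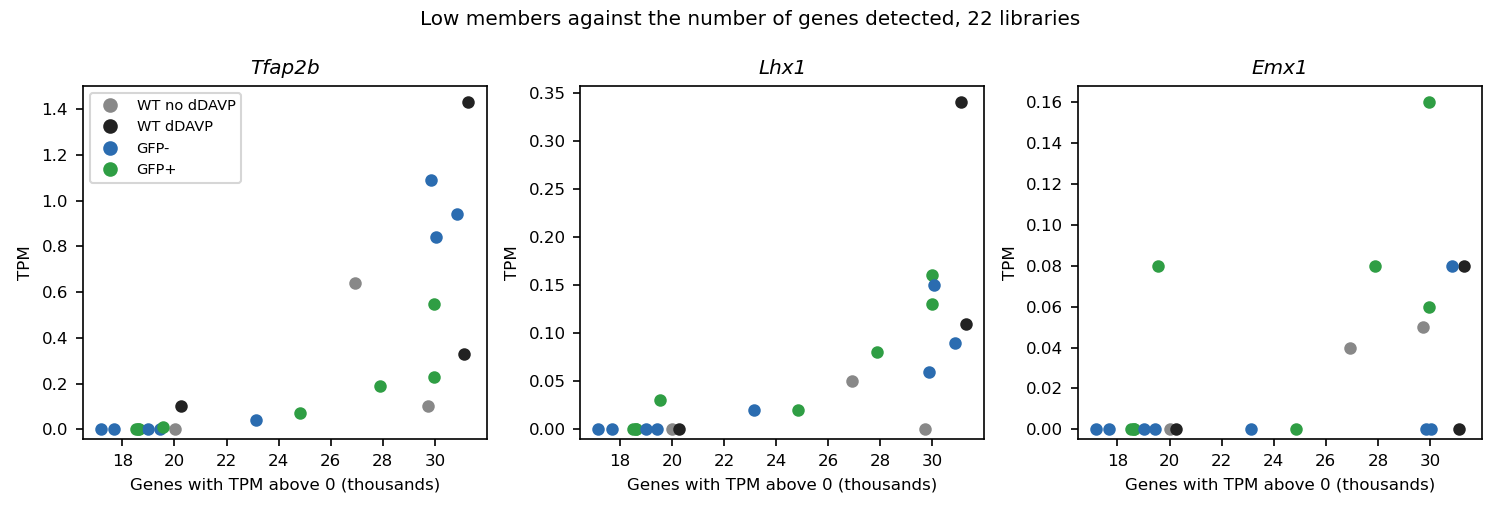
TPM of Tfap2b, Lhx1 and Emx1 (vertical axes) against the number of genes with TPM above 0 (horizontal axis), in the 22 libraries, coloured by WT treatment or GFP fraction. Values above 0.1 TPM occur only in the 12 libraries with 23135 or more genes detected.

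Likeness of pattern was measured as Pearson's r of the group means of log2(TPM + 1) over the 10 groups, among about 9601 genes with a mean of at least 5 TPM. These values describe 10 groups that share clones, treatments and libraries of unequal detection, and they carry no test. Closest to Gata3 were Taf3 (r = 0.976), a subunit of the general factor TFIID, and Snap23 (r = 0.972), a SNARE protein of vesicle fusion. The mean of Taf3 was 17.2 TPM in GFP-negative and 24.0 TPM in GFP-positive cells of C1, 21.8 and 35.2 TPM in C11, 22.5 and 32.3 TPM in C43, and 18.1 and 33.3 TPM in C50, and was 27.6 and 27.4 TPM in WT cells without and with dDAVP. Taf3 lies on chromosome 2 as Gata3 does, with 3 genes between them in RefSeq GRCm38.p6, 0 of them protein coding.

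Closest to Gata2 were Cds1 (r = 0.924), an enzyme of phospholipid synthesis, and Syt8 (r = 0.920), a synaptotagmin. Cds1 was 25.9 and 22.5 TPM in the fractions of C1 and 22.7 TPM in GFP-positive C50 cells, and 8.55 to 14.8 TPM in the other 7 groups. For Grhl2 they were Ripk4 (r = 0.984), a kinase of epithelial differentiation, and Sestd1 (r = 0.980), for Pax2 Nup210 (0.974) and Tap1 (0.963), for Pax8 Mbd1 (0.975) and Rcor3 (0.964), and for Tfap2a Wwp1 (0.933) and Dbnl (0.918). Among the members themselves, Grhl2 and Pax8 were most alike (r = 0.907 over the same 10 groups), and Gata2 and Gata3 had r = -0.327. Without GFP-negative replicate 1 of C50, r stayed at 0.972 for Taf3, 0.966 for Snap23, 0.932 for Cds1 and 0.922 for Syt8. It was 0.809 for Ripk4 and 0.793 for Sestd1 with Grhl2, and 0.863 for Wwp1 and 0.608 for Dbnl with Tfap2a, so the likeness of these rested in part on that library. For the partners of Pax2 and Pax8 it was 0.953 (Nup210), 0.912 (Tap1), 0.940 (Mbd1) and 0.942 (Rcor3), for Grhl2 and Pax8 0.869, and for Gata2 and Gata3 -0.349.

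Genes around the factors were read from lists. Of all genes tested, 35.3% were called between the fractions, 12.1% as higher. The lists were chosen with earlier results of these data known, so their counts and medians are a description only. Of the 24 family relatives, 4 were tested in the fraction comparison and 3 called, with Grhl1 (0.39) and Emx2 (0.35) higher and Pax9 (-0.71) lower in GFP-positive cells. Of 18 other kidney factors, 10 were tested, 5 rose and 1 fell. Elf3 (0.81, SE 0.0821, limma adjusted p = 4.31e-06), an ETS factor of epithelia, and Tfcp2l1 (0.71), a factor of collecting duct maturation, rose, and Sox9 (-1.14, limma adjusted p = 0.000761), a factor of progenitor cells, fell. The list median was 0.24, against -0.06 over all genes. Of 12 cofactors of GATA, LIM, PAX and AP-2 proteins, 11 were tested, none rose and 2 fell, Paxip1 (-0.45) and Kctd15 (-0.33), and 9 were not called. Under the 31 alternatives Elf3 was called in all, Sox9 and Tfcp2l1 in 30, Grhl1 in 19, Emx2 in 17 and Paxip1 in 11.

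Of 11 ureteric bud genes, 6 were tested, 2 rose and 3 fell in GFP-positive cells, again where 35.3% of all genes tested were called and 12.1% as higher. Npnt (0.92, limma adjusted p = 0.00147), which encodes the matrix protein nephronectin, rose. Among the falls were those of Etv4 and Etv5, ETS factors downstream of receptor tyrosine kinases, which passed the filter through the GFP-negative cells. Etv4 averaged 5.04 TPM in GFP-negative and 0.0575 TPM in GFP-positive libraries, and Etv5 1.75 and 0.355 TPM. With every gene above 0 TPM tested, their limma adjusted p was 7.02e-08 and 0.00219. Of 13 epithelial genes known from the Grhl2 programme, all were tested, 3 rose and 6 fell, with the splicing regulator Esrp2 (0.78) and Prom2 (0.76) higher and the adhesion gene Epcam (-0.70) lower. The list medians were -0.19 and -0.28, against -0.06 over all genes. The members of the epithelial list moved in both directions while Grhl2 itself was not called.

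In WT cells given dDAVP, where 8.88% of all genes tested were called, the calls in these lists were 2 of 10 other kidney factors tested, 1 of 11 cofactors and 1 of 13 epithelial genes. None of the 4 tested family relatives and none of the 7 tested ureteric bud genes was called by limma. Osr1 (-0.75, limma adjusted p = 0.0414), Eya1 (-0.78, limma adjusted p = 0.0495) and Paxip1 (-0.48, limma adjusted p = 0.047) fell, and Rab25 (0.32, limma adjusted p = 0.0319), a small GTPase of epithelia, rose. These 4 calls were lost under 10 or 11 of 16 alternatives.

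Counting near some members is uncertain. In GENCODE M21 the gene models of Gata3 overlap 9230102O04Rik on the same strand (38.3 TPM) and 4930412O13Rik on the opposite strand (3.49 TPM), and Grhl2 overlaps the antisense Gm16136 (67.1 TPM), which is above Grhl2 itself. The counting is not stated to use strand. Overlap was read from whole gene models and not from exons, so how many reads Grhl2 and Gm16136 share is not known. Other overlapping models lay at 1.87 TPM or less.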

How the data were processed

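The authors deposited one table of TPM per gene for 22 libraries, and these TPM were used. Per the submitters' processing notes the tools were STAR and RSEM, and their versions, the genome build and the annotation are not given in the sources used here. The SMART-Seq HT and Nextera XT kits served for cDNA and libraries, per the labels' protocols. TPM keep no depth, so no count test or detection limit was computed.

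Lines with the same symbol were summed (54514 entries). Linear models were fitted to log2(TPM + 1) with limma 3.58.1 in R 4.3.3 for genes with a mean of at least 1 TPM over the libraries of the fit, moderated with a mean-variance trend. Tests were two-sided, with Benjamini-Hochberg adjustment over all genes and an adjusted p under 0.05 called. The dDAVP comparison used the 6 WT libraries, and the others the 16 clone libraries with clone or fraction in the model, or a mean for each clone and fraction. The fits were tested on simulated data with known changes of 1 on the log2 scale. Recovery was 73.5% for dDAVP, 93% for the fraction over clones and 79.5% for clones. It was 83% for C1 against C11, 55% within C50 and 20.5% for the interaction.

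The members and lists were chosen with earlier results of these data known. Named genes were the 9 members, the 2 most alike in pattern to each member with a mean of at least 1 TPM (provisional symbols passed over), at most the 3 largest called changes of each list, and Aqp2 and GFP as context. From the lists, 1 gene is not reported here. Gata4 is named for clones as the called relative with the largest change. The pairs of groups were also compared after leaving out each library or clone, with a pseudocount of 0.1, filters at 5 or any TPM, median-ratio or quantile scaling, other moderation, the number of genes detected and a replicate block. Other filters and moderation were not run for clone pairs, within clones or for the interaction. The likeness of pattern and the C50 means without GFP-negative replicate 1 of C50 were added after seeing the data.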

Additional observations from a re-analysis of the deposited data

Results flagged for a closer look

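Aqp2 was the context gene whose GFP-fraction difference depended on the clone by the interaction test. The moderated F-test of limma gave an adjusted p of 2.155e-06, with log2 differences from 4.84 (clone C1) down to 1.90 (clone C50). No lineage factor was called in this test.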

How the results depend on the processing

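Of 887 values of members recomputed under the alternatives, 797 kept direction and side of the threshold, 71 lost a call, 8 gained one and 11 changed sign, all 11 without a call. The cause was not tested for any of them.

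The count of genes called for dDAVP (1198) was 442 with every gene above 0 TPM tested, 757 with median-ratio scaling, 691 without the trend, 2694 with genes detected as a covariate, and 101 in the libraries with more genes detected. The fraction count over clones (4626) was 250 in the libraries with fewer genes detected, where fewer samples enter. The interaction count (114) was 234 with quantile normalization. For GFP-negative libraries alone the clone pairs gave 332 (C1 and C11), 232 (C1 and C43), 371 (C1 and C50), 41 (C11 and C43), 135 (C11 and C50) and 110 (C43 and C50), and GFP-positive libraries alone gave 740 (C11 and C43) and 1874 (C43 and C50).

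Replicate numbers did not pair the libraries, since same-numbered deviations correlated at -0.208, -0.0254 and -0.109 in WT and at 0.0544 (C1), 0.0151 (C11), 0.203 (C43) and 0.0825 (C50). With the replicate block, dDAVP gave 122 calls, the fractions within C1 615 and within C11 564, and the interaction 11. The block ended the calls of Gata3 in C1 (adjusted p = 0.0648) and Tfap2a in C50 (0.0558).

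Leaving out each library gave counts of 314 to 2038 for dDAVP, 377 to 2094 within C1, 318 to 2331 within C11, 858 to 3891 within C43 and 1793 to 6820 within C50. It gave 2744 to 5889 for clones, 42 to 5038 for the interaction, 1779 to 4088 for C1 and C11, 2147 to 4791 for C1 and C43, 262 to 1531 for C11 and C43, 579 to 1109 for C11 and C50, and 663 to 1913 for C43 and C50. The highest counts within clones, for clones and for the interaction came without a GFP-negative library of C50. A lone library left in a group is assumed to vary like the others.

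Changes of sign were those of Gata3 for dDAVP (0.1193 with median-ratio scaling, -0.19 to 0.062 leaving out each library) and Gata2 over clones (-0.0966 without C50, -0.0592 in libraries with more genes detected, -0.0203 to 0.2089 leaving out each library). In the libraries with more genes detected Grhl2 (-0.0048) and Pax2 (-0.0371) also changed sign, as did Gata2 between C1 and C50 (-0.3786 in GFP-positive libraries, -0.2373 to 0.2818 leaving out each library). Depth, unknown here, limits the low members, for which absence cannot be told from sampling.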
